A study of Mus musculus with 399 samples.

Results

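The islet hormone genes described here are the 7 genes Ins1, Ins2, Iapp, Gcg, Sst, Ppy and Pyy, picked by name from the 56980 genes of the count table. They were read in 110 RNA-seq libraries of pancreas out of 399 libraries in the series. The mice were TALLYHO/Jng (TH), a polygenic model of obesity in which males become diabetic, and C57BL/6J (B6), the common reference strain. Males and females of both strains were weaned at 4 weeks onto chow or a high-fat diet and were sampled at 5 or 20 weeks of age, which is after 1 or 16 weeks of feeding. Strain, sex, diet and age together gave 16 groups of 6 to 10 libraries. The labels name no transgene or drug in any group, so strain, sex, diet and age are the differences they give, and both strains are inbred lines. The animal labels differ between the libraries of a group, so p-values describe the spread between these mice. In TH males on chow at 20 weeks the labels of replicates 5 and 6 differ only by a final letter a, and whether both come from 1 mouse is not stated, so they were counted as 2 mice.

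Pancreas is mostly acinar tissue, which makes digestive enzymes, and the islets are scattered in it as small clusters of endocrine cells. Beta cells make insulin. The mouse has a pair of insulin genes, the ancestral Ins2 and the retroposed copy Ins1, and beta cells release amylin, the product of Iapp, together with insulin. Alpha cells make glucagon from Gcg, delta cells make somatostatin from Sst, and the pancreatic polypeptide cells make Ppy, whose neighbour and relative Pyy is made in islet cells and in endocrine cells of the gut. Somatostatin restrains the release of the other hormones, and glucagon raises blood glucose where insulin lowers it.

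Since whole pancreas was sequenced, the 7 amylase genes alone took a median of 57.7% of the reads, with a range of 4.39% to 67.7% over the libraries. Levels are therefore given as RPM, the reads of a gene scaled to a fixed total, counted over the reads left after these 7 genes, and they compare libraries, not genes. The libraries held 1173484 to 11731391 reads (median 6559752). They fell into 27 libraries of up to 3235538 reads, called shallow below, and 83 deep libraries of 3810809 reads or more. Known acinar enzymes, the amylases included, took 43% to 85.8% of each library. Differences between groups were tested with edgeR's quasi-likelihood test over all 13367 genes that passed a filter on low counts, with Benjamini-Hochberg adjustment and a threshold of 0.05, and all 7 hormone genes passed that filter. Fold changes from this test are on edgeR's TMM scale, which differs from the scale of the levels. The test pools the spread of a gene over all 16 groups. An SE or adjusted p from it therefore does not give the spread of the compared groups alone. The groups were unequal in this: the SD of the Ins2 level was 503 in TH males on high-fat diet at 20 weeks. In B6 males on chow at 20 weeks it was 52.8.

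The stretches before the start sites of Ins1, Iapp, Gcg and Sst are shown because Ins1 and Iapp co-varied closely across libraries and so did, less closely, Gcg and Sst. Ins2 co-varied with Ins1 more closely still (r 0.99, against 0.92 for Iapp), but the promoter reference used here had no entry for it. Each is the 250 bases before the start in RefSeq's GRCm38.p6 models, 5′ to 3′ along the gene, while the authors' processing notes name GRCm39 for the reads. The positions are chr19:52264047-52264296 (plus strand) for Ins1, chr6:142298175-142298424 (plus strand) for Iapp, chr2:62483654-62483903 (minus strand) for Gcg and chr16:23890845-23891094 (minus strand) for Sst. Capitals mark TAAT or ATTA, the core that homeodomain factors such as PDX1 read, in the first 3, and the cAMP response element TGACGTCA in Sst, whose own TAAT core is left in lower case.
Ins1: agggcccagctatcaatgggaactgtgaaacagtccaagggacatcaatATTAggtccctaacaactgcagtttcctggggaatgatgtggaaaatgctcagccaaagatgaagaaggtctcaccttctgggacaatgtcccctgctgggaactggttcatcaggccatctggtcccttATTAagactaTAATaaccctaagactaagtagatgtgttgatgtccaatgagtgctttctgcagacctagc
Iapp: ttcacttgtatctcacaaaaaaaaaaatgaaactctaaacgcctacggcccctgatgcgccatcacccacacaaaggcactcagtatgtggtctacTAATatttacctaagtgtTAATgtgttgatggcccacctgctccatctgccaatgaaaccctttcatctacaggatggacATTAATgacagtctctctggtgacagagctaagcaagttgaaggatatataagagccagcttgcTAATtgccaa
Gcg: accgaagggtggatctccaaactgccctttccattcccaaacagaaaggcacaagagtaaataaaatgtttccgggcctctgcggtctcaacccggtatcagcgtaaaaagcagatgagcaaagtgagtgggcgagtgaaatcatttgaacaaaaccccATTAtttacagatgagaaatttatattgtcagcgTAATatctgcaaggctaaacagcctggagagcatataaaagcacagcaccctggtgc
Sst: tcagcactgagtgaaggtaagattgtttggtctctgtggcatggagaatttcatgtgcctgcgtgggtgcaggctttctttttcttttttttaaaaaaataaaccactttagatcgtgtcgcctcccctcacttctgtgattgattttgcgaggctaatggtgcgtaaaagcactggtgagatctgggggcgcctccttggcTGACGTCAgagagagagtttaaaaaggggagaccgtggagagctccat
Both strands were searched. Ins1 held 3 TAAT cores, Iapp 5 (a pair of them overlapping), Gcg 2 and Sst 1, and 54.9% of the 32851 promoters of the same length held at least 1, so the core is common. The TGACGTCA of Sst began 48 bases before the start, and 1.55% of promoters held that word. Ppy and Pyy, which lie close together on chromosome 11, held neither.

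Per unit of transcript length, Ins2 was the most abundant of the 7. In B6 males on chow at 20 weeks, the group for which the authors' FPKM values were used, Ins2 stood at 448 ± 48.5 FPKM (SD, n = 6) and Ins1 at 232 ± 18.9. Gcg followed at 137 ± 13.7 FPKM and Iapp at 90.4 ± 8.1. Sst was lower at 22.7 ± 8.09 FPKM, and the polypeptide pair was lowest, with Pyy at 5.38 ± 1.39 and Ppy at 5.23 ± 2.14. For scale, the amylase Amy2a5 stood at 105231 ± 4621 FPKM in the same libraries.

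Over all 110 libraries the 5 abundant hormones were always detected. Ins2 had between 188 and 5886 reads in a library and Sst between 6 and 273. Ppy had 0 reads in 8 libraries and a median of 5, and Pyy had 0 in 4 and a median of 8, so single values of these 2 genes rest on a handful of reads. A library with 0 reads allows up to 3 reads, by counting error alone.

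**Figure D1:**
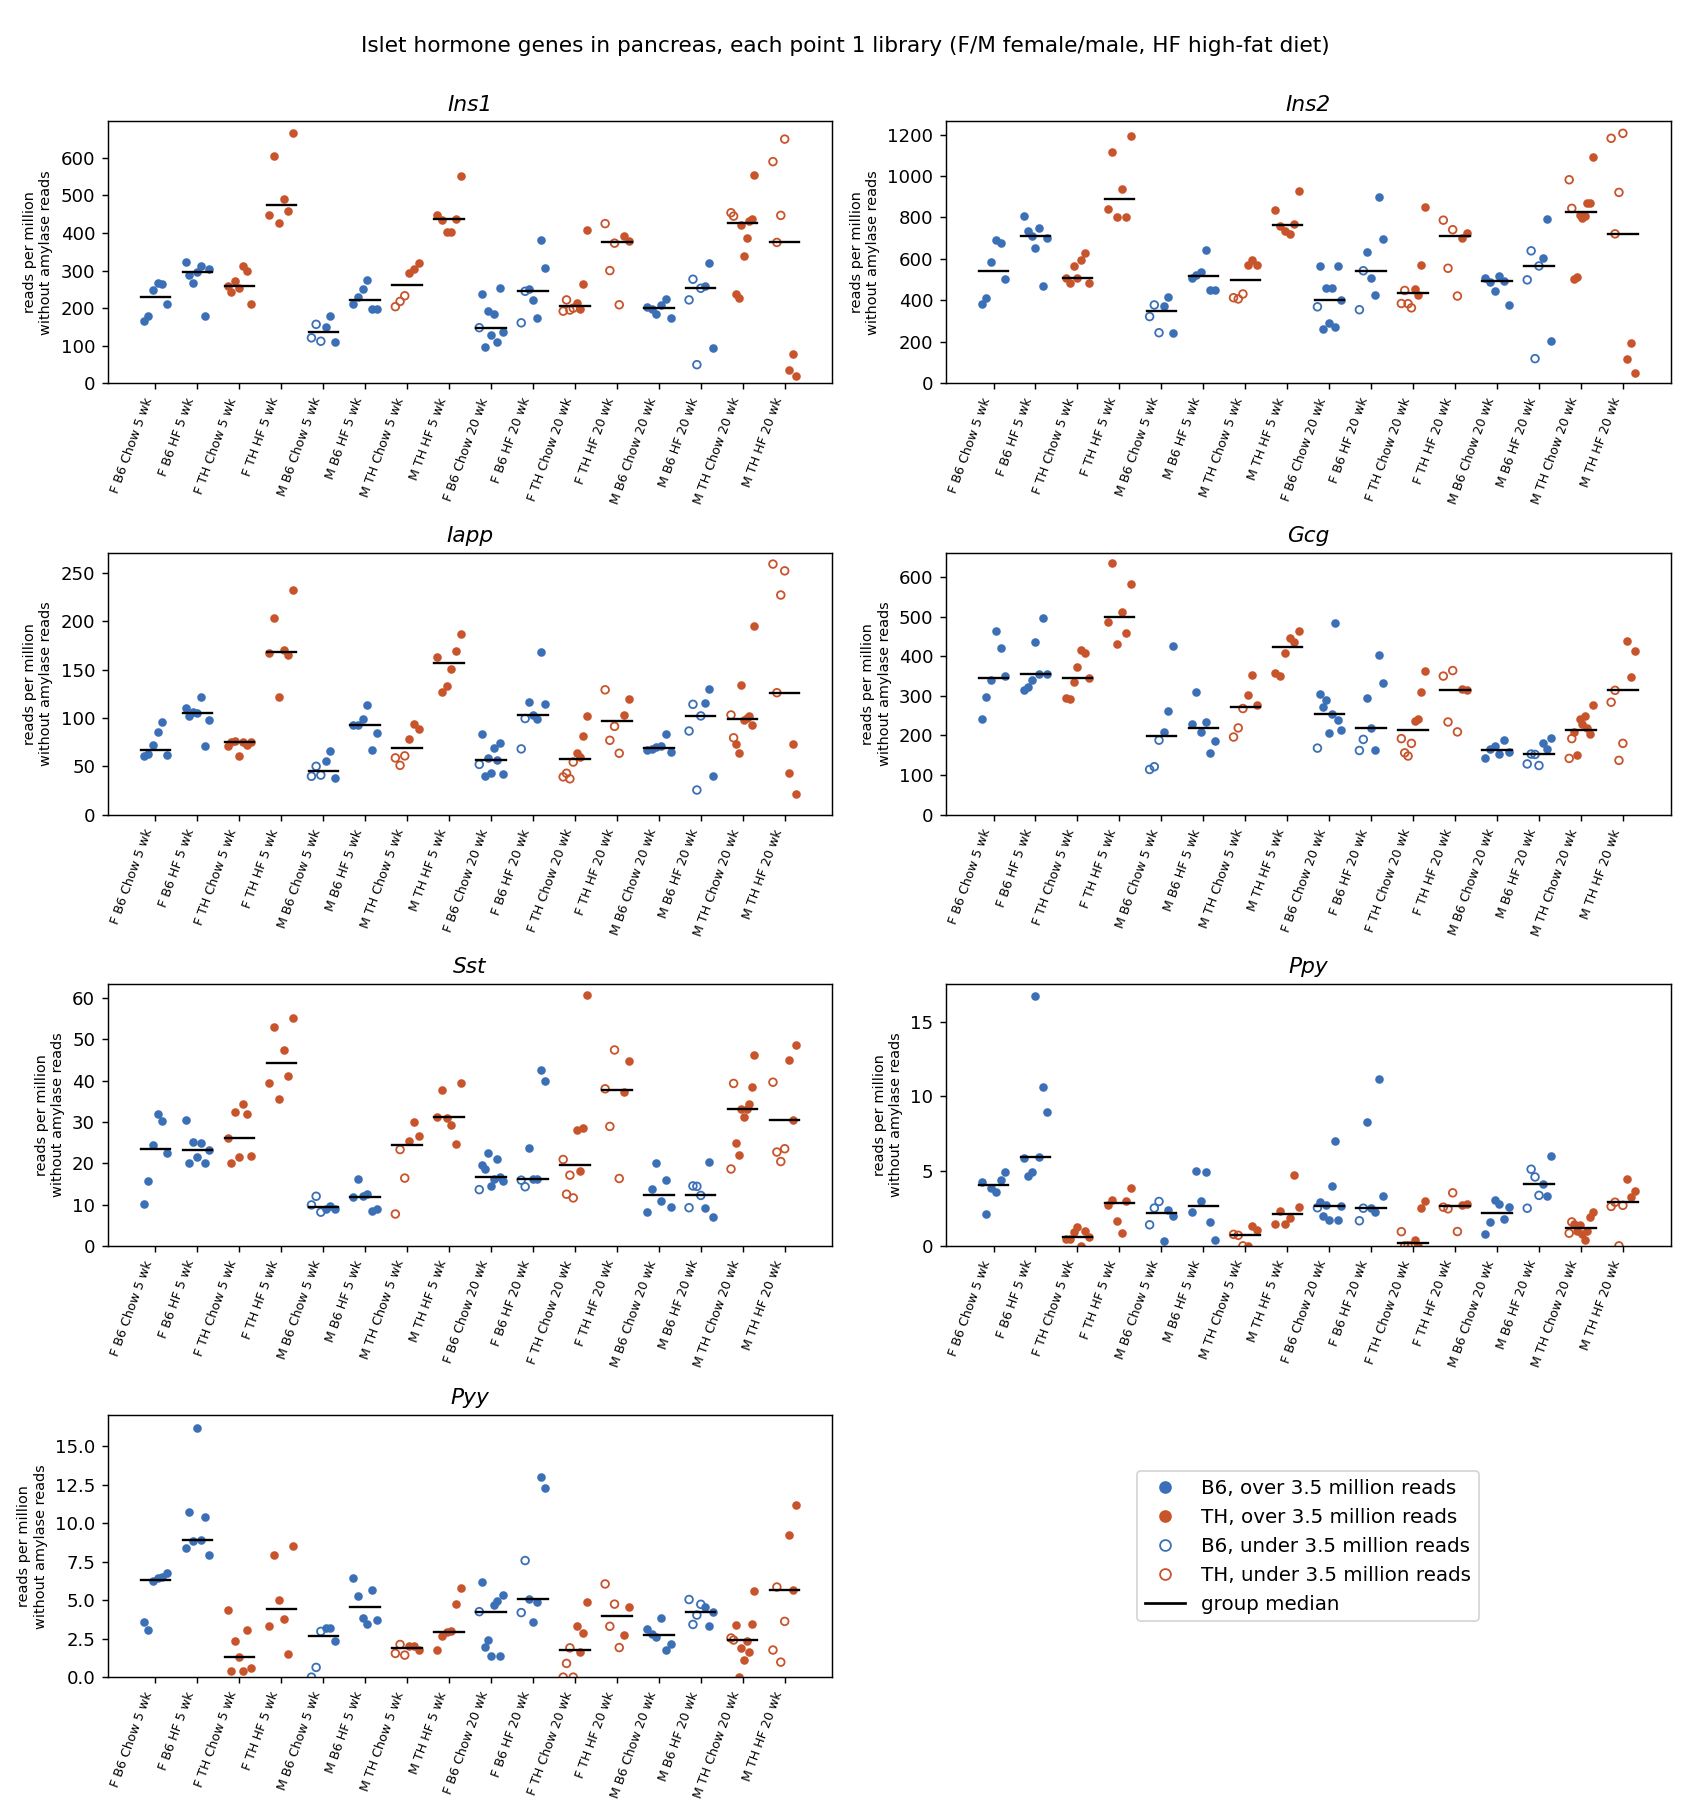
Level of each hormone gene in every pancreas library (vertical axes, RPM without amylase reads, each starting at 0) by group (horizontal axes), with group medians as bars and shallow libraries as open circles. For Ins2 the TH males on high-fat diet at 20 weeks span 49.8 to 1206, the widest range of the 16 groups.

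In the order of group medians, TH females after 1 week of high-fat diet were highest for 5 of the 7 genes on this scale. For Ins1, Ins2 and Iapp the highest group was TH males on high-fat diet at 20 weeks when levels were taken over all reads or over the reads left after all acinar enzymes. In the TH females after 1 week of high-fat diet the Ins2 level ran from 801 over a median of 890 to 1191. B6 males on chow at 5 weeks were lowest for Ins1, Ins2, Iapp and Sst (over all reads, for Sst alone of these), with an Ins2 level of 348 at the median and 415 at the highest. The ratio of the highest to the lowest group median was 2.56 for Ins2, 3.5 for Ins1, 3.72 for Iapp, 3.27 for Gcg and 4.75 for Sst. Ppy and Pyy had another order, in which B6 females after 1 week of high-fat diet were highest, at medians of 5.92 and 8.88. The lowest Ppy medians were those of the 4 TH chow groups, at 0.206 and 0.581 in females at 20 and 5 weeks and at 1.22 and 0.739 in males. Neighbours in these orders have the closest medians, and of 105 neighbouring pairs of groups over the 7 genes, the ranges of 1 pair did not overlap. That pair was Pyy in B6 females at 5 weeks on high-fat diet (7.91 to 16.2) over the same females on chow (3.04 to 6.76). Over all 120 pairs of groups, the ranges did not overlap in 30 for Ins1, 28 for Sst and 27 for Gcg. The number was 21 for Ins2, 21 for Iapp, 20 for Ppy and 19 for Pyy. No such share over all genes is given here.

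The first comparison was TH against B6 on chow at 20 weeks. In males, 2 of the 7 hormone genes rose in TH and none fell, where 20.5% of all genes tested were called. Ins1 was 226 at the lowest, 427 at the median and 554 at the highest in TH males, against 173, 200 and 224 in B6 males. Every TH male was therefore above every B6 male, and the log2 change of Ins1 was 0.89 (SE 0.29, adjusted p = 0.0207). Ins2 gave 0.68 (SE 0.28) and did not pass (adjusted p = 0.0652), with levels of 505 to 1093 in TH and 376 to 518 in B6. The Ins1 call ended without the 5 TH males whose animal labels end in the letter a (0.96, adjusted p = 0.0612). A change in the number of hormone-making cells and a change in hormone RNA per cell cannot be told apart in whole tissue, here and below.

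Sst was the hormone gene with the clearest strain difference in males. Its level was 18.6 to 46.3 (median 33.1) in TH males on chow and 8.25 to 20.0 (median 12.3) in B6 males, a 2.24-fold rise (log2 1.16, SE 0.21, adjusted p = 3.79e-06). The ranges touched only at their ends. On high-fat diet at 20 weeks, where 15.5% of genes were called, the rise was 2.54-fold (log2 1.34, SE 0.23, adjusted p = 2.02e-06), with 20.4 to 48.6 in TH males against 6.9 to 20.3 in B6 males and no overlap. Sst rose in TH females as well, by 0.54 in log2 on chow (SE 0.19, adjusted p = 0.0349) and by 0.60 on high-fat diet (SE 0.21, adjusted p = 0.0475), where 9.58% of genes were called. The female calls were weak: the chow call was lost in 5 alternative analyses and the high-fat call in 6, and without the 1 TH chow female whose label ends in that letter the chow difference was 0.24 (adjusted p = 0.468). Of the females on chow, 4 of 8 TH and 1 of 9 B6 libraries were shallow, and on high-fat diet 4 of 6 and 2 of 7. The difference between the sexes in the strain effect was itself tested, and Sst gave 0.62 (SE 0.28, adjusted p = 0.261). At 5 weeks on chow, with the sexes averaged, Sst was already 1.47-fold higher in TH (log2 0.56, SE 0.16, adjusted p = 0.00603).

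Ppy went the other way. TH females on chow at 20 weeks had 0 to 3.01 (median 0.206), with no Ppy read in 4 of 8 libraries, while B6 females had 1.7 to 7.02 (median 2.66) and 3 to 27 reads in each library. The groups overlapped through the highest 2 TH females. Ppy fell by 1.5 in log2 (SE 0.46, adjusted p = 0.0123), in a comparison where 16.8% of genes were called. Depth differed between these groups, with 4 of 8 TH libraries shallow and 1 of 9 B6 libraries. With deep libraries alone the change was -1.26 and did not pass (adjusted p = 0.0955). In deep libraries the lowest Ppy median was that of TH females on chow at 5 weeks, not at 20 weeks. At 5 weeks on chow, where 26% of genes were called, both polypeptide genes fell in TH, Ppy by 2.09 in log2 (SE 0.42, adjusted p = 2.56e-05) and Pyy by 1.17 (SE 0.32, adjusted p = 0.00301). All 3 calls at 5 weeks, for Ppy, Pyy and Sst, held in each alternative analysis. In TH males on chow at 20 weeks Ppy gave -0.88 (SE 0.48, adjusted p = 0.195). None of the 7 genes passed the test of a strain effect that differs between the sexes, for which 1.46% of genes were called. Of these 7, 2 had an unadjusted p under 0.05 (Gcg and Sst), and DESeq2 called 0.

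**Figure D2:**
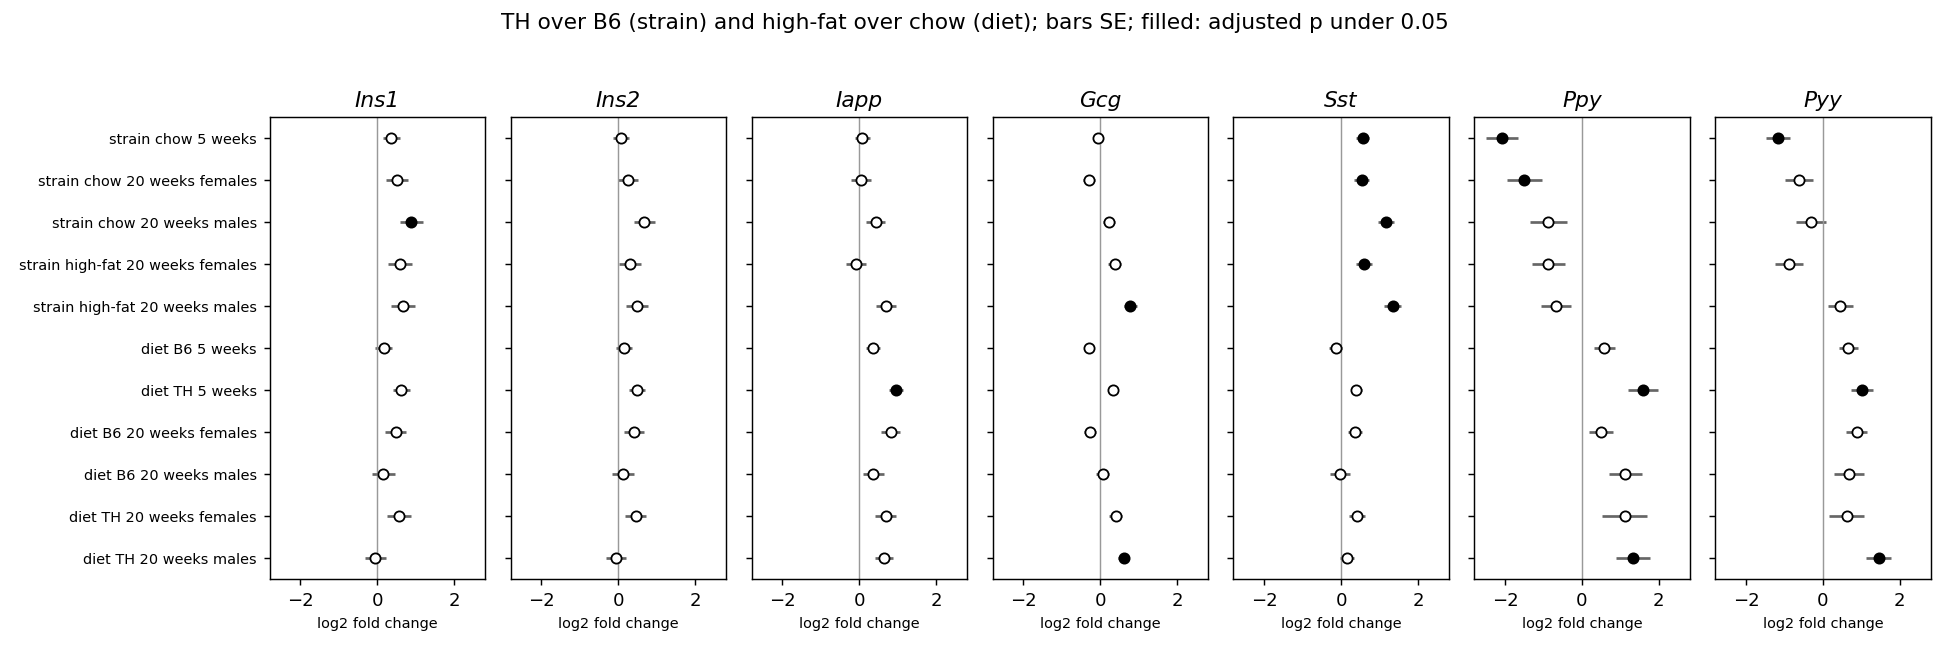
Log2 fold change (horizontal axes) with its SE for each hormone gene in the 11 strain and diet comparisons (vertical axis), filled where the adjusted p is under 0.05. Sst is filled in all 5 strain comparisons and in none of the 6 diet comparisons.

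Other genes of the endocrine cells did not share the rise of Sst and Ins1 in one direction. Among 13 tested of 20 beta cell factors and glucose sensing genes, 3 rose and 2 fell in TH males on chow at 20 weeks, with a median log2 change of 0.45 against 0.0019 over all genes. Mafa, a factor of mature beta cells that drives insulin genes, rose by 2.44 (SE 0.48, adjusted p = 2.9e-05), and Slc2a2, the glucose transporter of beta cells, rose by 0.94 (SE 0.22, adjusted p = 0.000536). Mafa had 3 to 23 reads in a library of these TH males and 0 to 5 in one of the B6 males, so its fold rests on few reads. Of 15 tested genes of prohormone processing and secretory granules, 5 rose and 1 fell, among them Ptprn2 of the granule membrane at 0.63 (SE 0.09) and Scg5, the chaperone of a prohormone convertase, at 1.28 (SE 0.33). Chga, the granule protein chromogranin A, was not called in TH males on chow (0.32, SE 0.22, adjusted p = 0.332).

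Markers of the hormone-making cell types were thin. Of 7 alpha cell markers 3 passed the filter, and Ttr, a carrier protein abundant in alpha cells, rose in TH males on chow by 0.98 (SE 0.18, adjusted p = 1.61e-05). Of 4 delta cell markers 2 were tested, with a median log2 change of 0.13. Hhex, the factor of delta cells, fell by 0.91 (SE 0.28, adjusted p = 0.0116) in the TH males in which Sst rose. The other tested delta cell marker was not called. Of 17 genes of hormone receptors and of proteins that partner them 5 were tested, and 2 fell. Ramp1, a partner of the amylin receptor and not itself a receptor, fell by 1.81 (SE 0.13, adjusted p = 8.43e-23). Sstr2, a somatostatin receptor, fell by 0.66 (SE 0.23, adjusted p = 0.0292). Gal, which encodes the neuropeptide galanin, was the 1 tested of 12 other peptide hormone genes and fell by 2.48 (SE 0.21, adjusted p = 2.9e-19). In the same comparison 3 of 5 adipocyte markers rose (Lep, Adipoq and Cidec), with summed levels of 18 to 129 in TH males and 18.8 to 44.2 in B6 males, and the part of this in the hormone levels was not tested.

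The ratio of a hormone to Ins2 within 1 library needs no library size, though for Ppy and Pyy, with few reads, it moves with the pseudocount of 0.5 added to the reads, and 6 such ratios were compared between groups at 20 weeks in 8 comparisons, 48 tests in all. By exact two-sided permutation tests with Benjamini-Hochberg adjustment over the 48, 12 passed. With deep libraries alone, which leaves fewer libraries a group, 4 of these 12 kept their call. The share of Ins1 relative to Ins2 differed between the strains except in males on high-fat diet. There were 0.425 to 0.528 Ins1 reads per Ins2 read (median 0.489) in TH males on chow and 0.401 to 0.460 (median 0.408) in B6 males. The mean log2 ratio was -1.05 ± 0.10 (SD, n = 10) and -1.25 ± 0.09 (n = 6), a difference of 0.20 (exact permutation test, adjusted p = 0.0168, and 0.0646 without the 5 labels ending in a). In females on chow the ratio was 0.461 to 0.549 in TH and 0.342 to 0.446 in B6, with no overlap, and the difference was 0.27 (exact permutation test, adjusted p = 0.00247). In females on high-fat diet it was 0.497 to 0.557 and 0.397 to 0.453, again with no overlap, and the difference was 0.30 (exact permutation test, adjusted p = 0.00699). With deep libraries alone neither female difference passed, at 0.21 on chow and 0.37 on high-fat diet (exact permutation tests, adjusted p = 0.0529 and 0.143). In males on high-fat diet the difference was 0.02 (exact permutation test, adjusted p = 0.904), and the TH libraries ran from 0.300 to 0.539. At 5 weeks, which these tests did not cover, the group medians were 0.5 to 0.564 in TH and 0.401 to 0.438 in B6. Ins1 and Ins2 are near copies of each other, and how the authors counted reads that match both is not given in the sources used here, so the size of this ratio is uncertain.

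**Figure D3:**
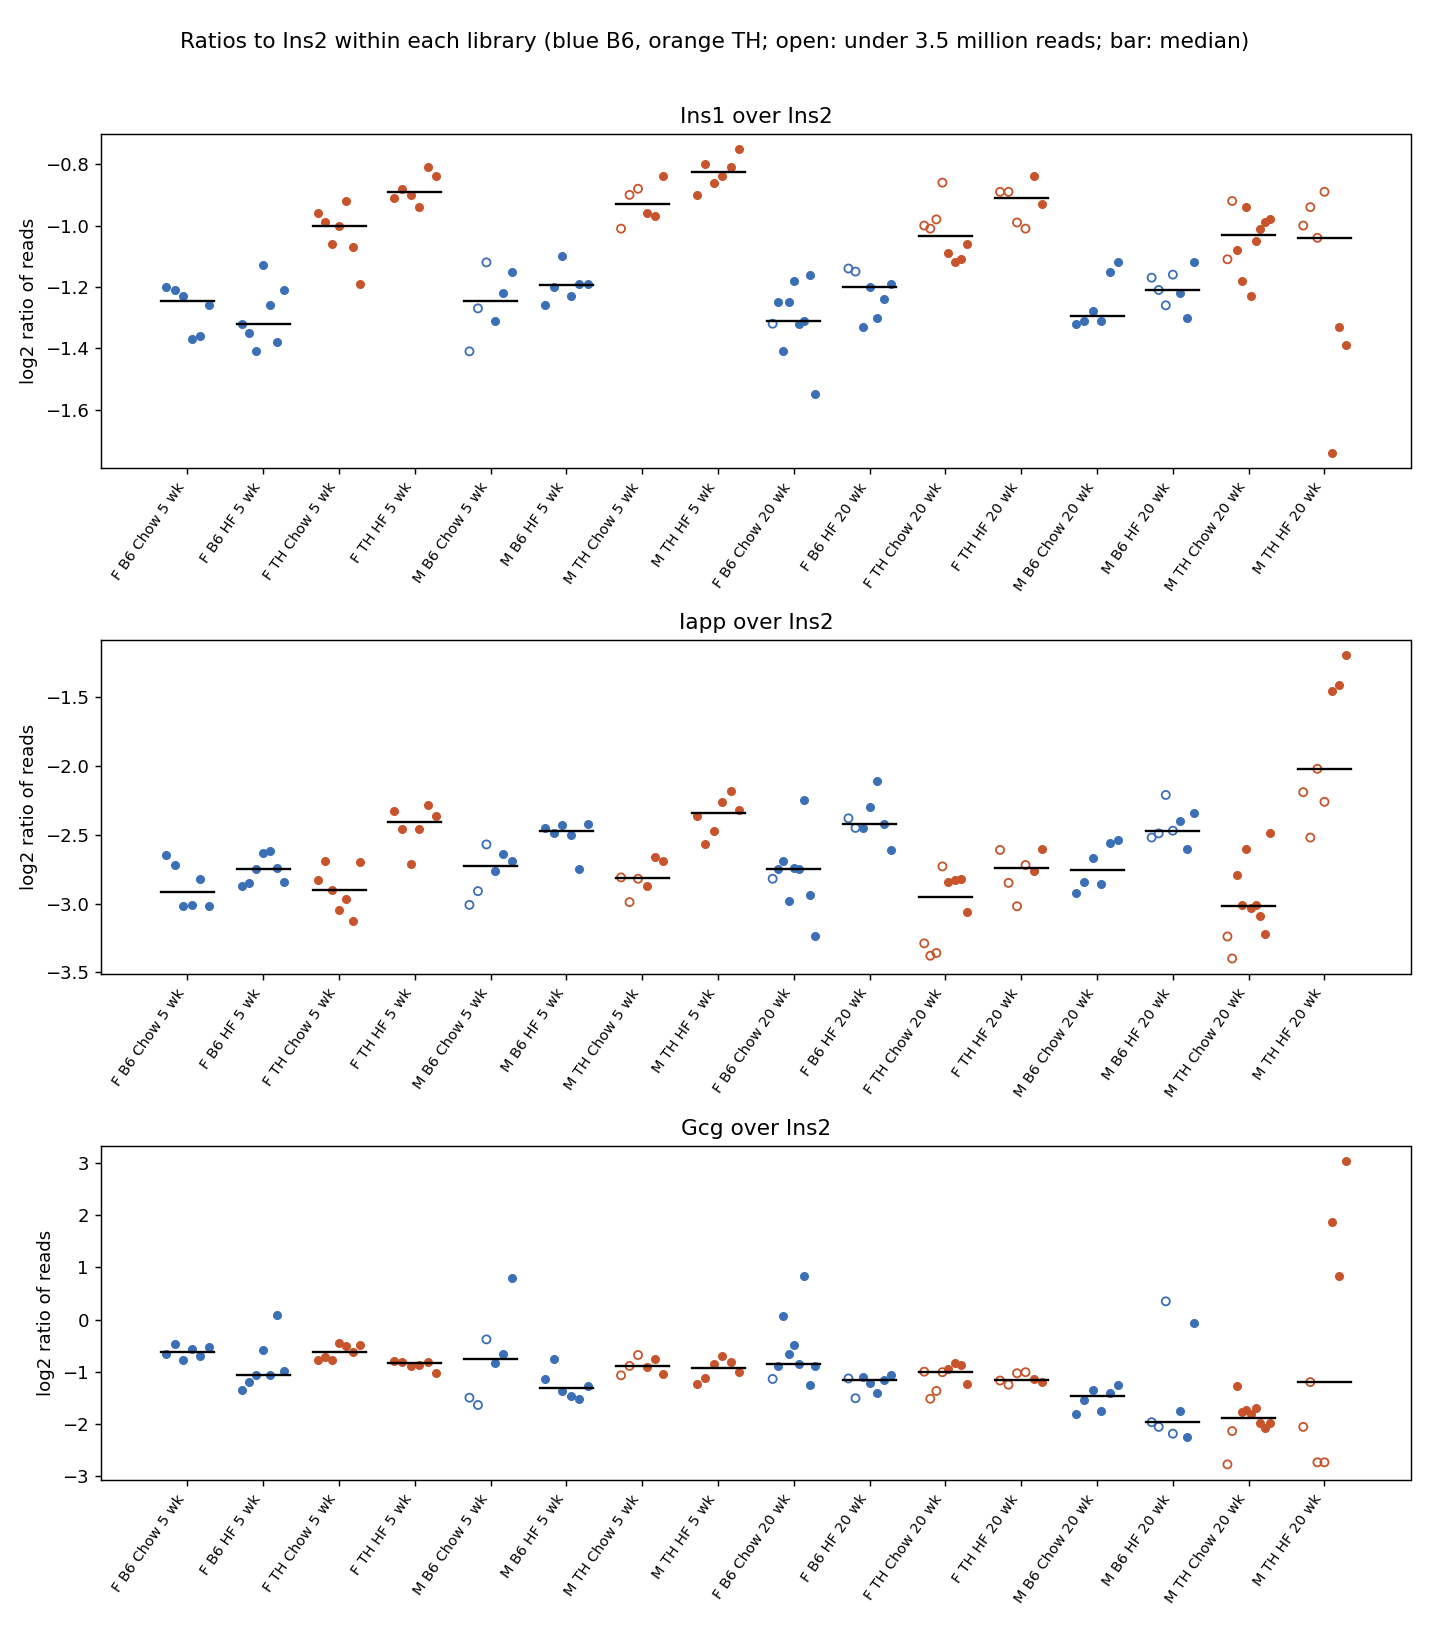
Log2 ratio of Ins1, Iapp and Gcg reads to Ins2 reads in each library (vertical axes) by group (horizontal axes), B6 in blue and TH in orange, shallow libraries open, bars at medians. For Ins1 over Ins2 the TH medians lie above the B6 medians at both ages, while 3 deep TH males on high-fat diet lie at 0.300, 0.382 and 0.398 reads per Ins2 read.

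Iapp rose relative to Ins2 on the high-fat diet. In B6 males at 20 weeks there were 0.164 to 0.215 Iapp reads per Ins2 read on high-fat diet and 0.132 to 0.172 on chow, a log2 difference of 0.30 (exact permutation test, adjusted p = 0.0168). B6 females gave a difference of 0.41 (exact permutation test, adjusted p = 0.0168). With deep libraries alone the B6 differences were 0.28 and 0.41 and did not pass (exact permutation tests, adjusted p = 0.143 and 0.0746). TH males gave the largest of the 4 diet differences, 1.13 (exact permutation test, adjusted p = 0.00247), with 0.175 to 0.440 on high-fat diet against 0.0945 to 0.179 on chow. The highest 3 of these TH values, 0.365, 0.375 and 0.440, belong to the 3 deep libraries of the group, and without the 2 of low amylase share the difference was 0.91 (exact permutation test, adjusted p = 0.00799). TH females gave 0.28 and did not pass (exact permutation test, adjusted p = 0.0939). Between the strains on high-fat diet the ratio differed in opposite directions by sex, with a log2 difference of 0.57 in males (exact permutation test, adjusted p = 0.0423) and -0.37 in females (exact permutation test, adjusted p = 0.0168), and the difference between the sexes was not tested. The male value did not pass without the 2 TH libraries of low amylase share described below (0.36, exact permutation test, adjusted p = 0.0782). With deep libraries alone neither strain difference passed, at 1.1 in males and -0.3 in females (exact permutation tests, adjusted p = 0.185 and 0.254).

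The Ppy ratio to Ins2 was lower in TH on chow, with a log2 difference of -1.36 in males (exact permutation test, adjusted p = 0.0168, and 0.104 without the 5 labels ending in a) and -2.04 in females (exact permutation test, adjusted p = 0.00395), and the female difference was -0.41 with a pseudocount of 5 (exact permutation test, adjusted p = 0.42). The remaining 2 of the 12 were a lower Pyy ratio in TH females on high-fat diet (difference -0.93, exact permutation test, adjusted p = 0.0168) and a lower Gcg ratio on high-fat diet in B6 females (difference -0.64, exact permutation test, adjusted p = 0.0423). With a pseudocount of 5 the Pyy difference was -0.49 and did not pass (exact permutation test, adjusted p = 0.192). With deep libraries alone neither passed (exact permutation tests, adjusted p = 0.185 for Pyy and 0.123 for Gcg).

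High-fat feeding was the second comparison. In B6 mice none of the 7 genes was called at 20 weeks in males, where 1.09% of genes were called, or in females (1.5%), or at 5 weeks (1.99%). At an unadjusted p under 0.05 there were 1 of 7 in males, 2 of 7 in females and 3 of 7 at 5 weeks, and DESeq2 called 0, 1 and 0. The nearest were in females at 20 weeks, Iapp at 0.82 (SE 0.24, adjusted p = 0.0521) and Pyy at 0.88 (SE 0.28, adjusted p = 0.0887).

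In TH mice after 1 week of high-fat diet, 3 of 7 rose, where 3.26% of genes were called. Iapp was 122 to 232 (median 169) in females on high-fat diet and 60.8 to 75.8 (median 74.6) on chow, and 127 to 187 (median 157) in males on high-fat diet and 50.9 to 93.6 (median 69.3) on chow. Neither sex showed an overlap, and Iapp rose 1.94-fold (log2 0.95, SE 0.18, adjusted p = 0.000219). Ppy rose by 1.58 (SE 0.39, adjusted p = 0.00838) and Pyy by 1.01 (SE 0.29, adjusted p = 0.0281). Ins1 gave 0.62 (SE 0.22, adjusted p = 0.103) and Ins2 0.50 (SE 0.21, adjusted p = 0.199). All 7 were called when libraries were scaled to the reads left after amylase, on which scale the median of all genes itself moved to 0.23, and 18 of 44 tested acinar enzyme genes fell in this comparison. All TH libraries on high-fat diet at 5 weeks were deep and 3 of 6 TH males on chow were shallow; with deep libraries alone Ins1 gave 0.58 (adjusted p = 0.0115) and Iapp 0.89 (adjusted p = 1.2e-05), while the Pyy call was lost (1.04, adjusted p = 0.0597).

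Granule genes rose with Iapp in these young TH mice: 7 of 15 tested prohormone processing and granule genes rose and 1 fell, with a median of 0.34 against -0.0061 over all genes. Scg2, a granule protein, rose by 0.94 (SE 0.19, adjusted p = 0.000465), Chgb by 0.78 (SE 0.19, adjusted p = 0.00525) and Chga by 0.63 (SE 0.17, adjusted p = 0.0161). Of the beta cell factors and glucose sensing genes 3 rose and 1 fell, and G6pc2, a glucose-6-phosphatase of beta cells, led with 1.18 (SE 0.20, adjusted p = 1.21e-05). None of 3 tested alpha cell markers and none of 2 tested delta cell markers was called by edgeR. In the same comparison 3 of 5 adipocyte markers rose (Lep, Fabp4 and Adipoq), Adipoq by 1.09 (SE 0.30, adjusted p = 0.0236), and their part in the hormone values was not tested.

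After 16 weeks of high-fat diet, the TH males held the widest spread of insulin in the series. In replicates 1 to 7 the Ins2 level was 1182, 721, 921, 1206, 119, 194 and 49.8. Ins1 followed with 590, 375, 447, 650, 35.6, 77 and 19, and Iapp with 259, 126, 227, 252, 43.4, 72.5 and 21.8. Replicates 1 to 4 were the shallow libraries of this group, and for Ins2 they lie within or above the range of TH males on chow (505 to 1093). Replicates 5 to 7 were the deep ones and lie below that range. Gcg did not follow, with 284, 314, 137, 180, 439, 347 and 413, and its 3 highest values are those of the deep libraries. Per Ins2 read there were 0.149 to 0.436 Gcg reads in the shallow libraries and 3.68, 1.79 and 8.28 in the deep ones. Sst ranged from 20.4 to 48.6 over the group.

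The deep and shallow libraries of this group differed in more than insulin, so that depth and hormone level cannot be told apart in it. The totals were 3810809, 4664594 and 5126633 reads in the deep libraries and 2138387 to 2415506 in the shallow ones. Amylase took 11.7%, 47.1% and 4.39% of the deep libraries and 43.4% to 52.0% of the shallow ones. The 7 stellate and fibroblast markers summed to 527, 320 and 745 in the deep libraries and to 197 to 283 in the shallow ones. The 5 macrophage markers summed to 158, 66.1 and 233 against 29.2 to 73, and the 6 gut epithelium markers to 18.4, 8.92 and 23.5 against 2.92 to 9.95, with the gut factors Cdx1 and Cdx2 at 0 reads in every pancreas library. The part of these cell types in the hormone values was not tested. In B6 males on the same diet the Ins2 level was 499, 639, 119, 566, 606, 792 and 204 in replicates 1 to 7. There, replicates 3 and 7 had the lowest amylase shares, 25.1% and 39.8% against 54.3% to 60.8%, and also the lowest Ins2, and 1 of them was shallow and 1 deep.

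**Figure D4:**
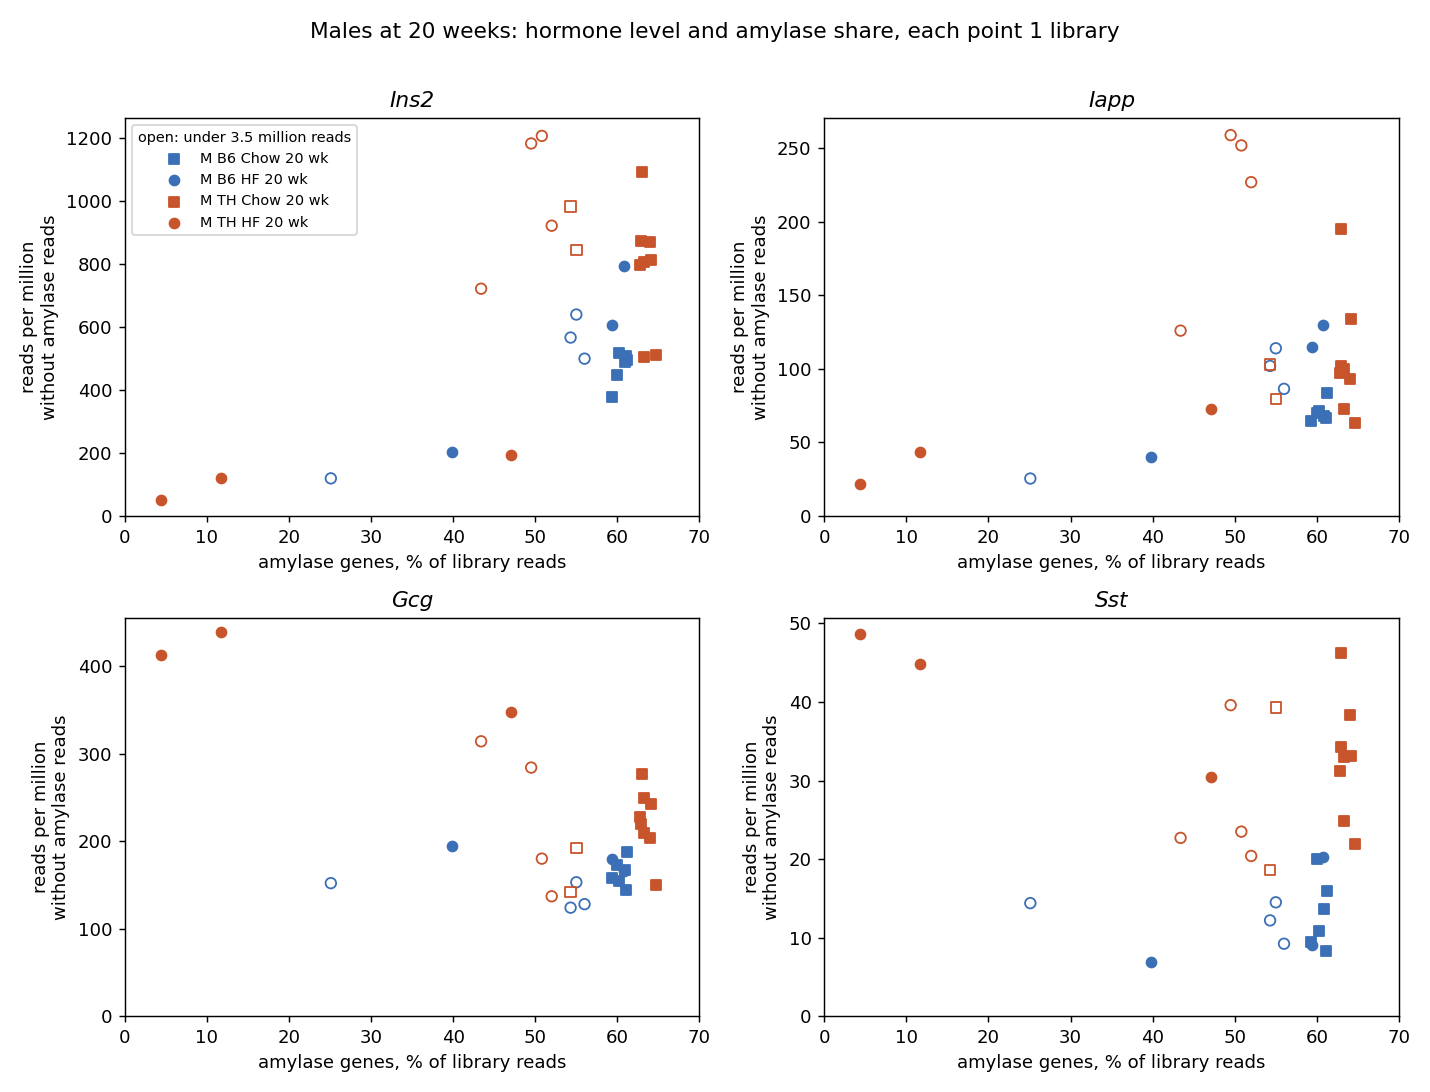
Level of Ins2, Iapp, Gcg and Sst (vertical axes, RPM without amylase reads) against the amylase share of the library (horizontal axes, percent) in the 4 groups of males at 20 weeks, shallow libraries open. The deep TH libraries on high-fat diet sit at 4.39%, 11.7% and 47.1% amylase with Ins2 of 49.8, 119 and 194, and their Gcg levels of 347 to 439 are the highest of the 30 libraries.

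The insulin genes had no stable direction in the comparisons that use these males. Against TH males on chow, where 11.1% of genes were called, Ins2 gave -0.06 (SE 0.26, adjusted p = 0.933), Ins1 -0.05 (SE 0.28, adjusted p = 0.96) and Iapp 0.64 (SE 0.23, adjusted p = 0.0581). With deep libraries alone the values were -2.79 (adjusted p = 2.62e-14), -3.27 (adjusted p = 3.62e-16) and -1.38 (adjusted p = 7.41e-06), and with shallow libraries alone 0.11 (adjusted p = 0.951), 0.17 (adjusted p = 0.916) and 1.21 (adjusted p = 0.0368). Against B6 males on high-fat diet, Ins2 gave 0.49 (SE 0.28, adjusted p = 0.262) in all libraries, -2.33 (adjusted p = 2.46e-10) in deep ones and 1.19 (adjusted p = 0.000423) in shallow ones. Without the 2 TH libraries with an amylase share under 20%, Ins2 gave 0.95 (adjusted p = 0.00112) against B6 and 0.40 (adjusted p = 0.366) against chow.

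Gcg was steadier in direction in the same males. It rose by 0.78 in log2 over B6 males on high-fat diet (SE 0.17, adjusted p = 0.000178), and each alternative analysis kept that call, within 0.69 to 0.95. Against TH males on chow (142 to 277) it rose by 0.61 (SE 0.15, adjusted p = 0.0024), but without the 2 libraries of low amylase share the value was 0.56 (adjusted p = 0.0619), and the groups overlapped. That call was also lost with library sizes after amylase removal (0.52, adjusted p = 0.056) and without the labels ending in a (0.59, adjusted p = 0.0576). In shallow libraries alone Gcg gave 0.46 (adjusted p = 0.641). Ppy rose by 1.32 (SE 0.44, adjusted p = 0.0339) and Pyy by 1.45 (SE 0.32, adjusted p = 0.000767) in TH males on high-fat diet. Without the same 2 libraries Ppy and Pyy gave 1.23 (adjusted p = 0.312) and 0.96 (adjusted p = 0.307). Leaving out replicate 5 or replicate 7 alone also ended the Ppy call, at 1.21 (adjusted p = 0.116) and 1.37 (adjusted p = 0.0734). So did library sizes after amylase removal (1.31, adjusted p = 0.0523) and a replicate block (1.42, adjusted p = 0.064). Without the labels ending in a Ppy gave 1.09 (adjusted p = 0.363), and in deep libraries alone 1.42 (adjusted p = 0.0571). None of the 7 genes passed the test of a diet effect that differs between the strains in males, where 1.27% of genes were called, or in females, where 0% were called. In males 1 of the 7 had an unadjusted p under 0.05 and DESeq2 called 0, and in females the numbers were 1 and 0. Over all genes tested, the female comparison had 977 at an unadjusted p under 0.05, and DESeq2 called 23.

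Beta cell genes fell in TH males on high-fat diet against chow: 6 of 13 tested fell and none rose, with a median of -0.77 against 0.00872 over all genes. Mafa fell by 2.18 (SE 0.46, adjusted p = 0.000367), Slc30a8, the zinc transporter of insulin granules, by 1.67 (SE 0.34, adjusted p = 0.000185), and Slc2a2 by 0.78 (SE 0.21, adjusted p = 0.00749). Of the 15 granule genes, 1 fell, Pcsk1n, an inhibitor of a prohormone convertase, by 1.85 (SE 0.49, adjusted p = 0.00559). Gc rose by 1.32 (SE 0.33, adjusted p = 0.00347) among the alpha cell markers, and Hhex by 0.91 (SE 0.28, adjusted p = 0.0176) among the delta cell markers. The calls of this comparison pool the deep and shallow libraries of the TH males on high-fat diet. Mafa was 0.974 to 5.42 in the shallow ones and 0 to 0.811 in the deep ones, on 0 to 6 reads each. Hhex was 1.81 to 3.9 and 4.49 to 6.83, and Slc2a2 was 2.92 to 10.7 and 3.24 to 7.75, in the same order. With shallow libraries alone, 16 of all genes tested were called, against 1490 in all libraries. All 7 amylase genes fell, and 2 of 5 macrophage markers rose, Mrc1 by 0.77 (SE 0.19, adjusted p = 0.00341) and Adgre1 by 0.94 (SE 0.31, adjusted p = 0.0351). In TH females none of the 7 hormone genes was called for diet at 20 weeks, where 0.299% of genes were called; 3 had an unadjusted p under 0.05 and DESeq2 called 0.

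Age and sex gave few calls among the hormone genes. On chow, with the sexes averaged, 3 of 7 changed between 5 and 20 weeks in TH, where 27.5% of genes were called: Ins2 rose by 0.49 (SE 0.19, adjusted p = 0.0461), Sst rose by 0.43 (SE 0.14, adjusted p = 0.011) and Gcg fell by 0.29 (SE 0.11, adjusted p = 0.044). The sexes did not move alike for Ins2 and Sst. In TH males the median levels at 5 and 20 weeks were 500.0 and 827 for Ins2 and 24.3 and 33.1 for Sst. In TH females they were 507 and 437 for Ins2 and 26 and 19.5 for Sst, and the difference between the sexes in this change was not tested. With deep libraries alone none of the 3 passed, at adjusted p = 0.0765, 0.0503 and 0.114, and none passed without the 6 labels ending in a. Library sizes after amylase removal ended the Ins2 call (0.28, adjusted p = 0.255) and the Sst call (0.27, adjusted p = 0.197). The Ins2 call was also lost with DESeq2 (adjusted p = 0.0654), RLE factors (adjusted p = 0.0561) and library sizes after acinar enzyme removal (adjusted p = 0.0688). In B6, where 14.6% were called, none passed, 1 had an unadjusted p under 0.05 and DESeq2 called 1, and none passed the test of an age effect that differs between the strains (4.53% of genes; 0 at an unadjusted p under 0.05, and DESeq2 called 0). Between the sexes on chow at 20 weeks, Gcg was 1.7-fold lower in B6 males than in B6 females (log2 -0.76, SE 0.16, adjusted p = 0.00234, with 1.6% of genes called), and each alternative analysis kept that call. Its levels were 144 to 188 in the males and 168 to 483 in the females, so the ranges overlapped. In TH the same comparison called none of the 7 (0.554% of genes), with 3 at an unadjusted p under 0.05 and 0 by DESeq2.

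Within groups, the hormone genes formed 2 sets by Pearson correlation. After each group mean was removed from the log2 levels, the Pearson correlation over 110 libraries was 0.99 for Ins1 with Ins2 and 0.93 for Ins2 with Iapp. Spearman's rho was 0.97 and 0.88. These used 100000 permutations within groups, adjusted over 21 pairs, and gave adjusted p = 3.5e-05 for r and 3e-05 for rho, the smallest they can give here. Without the 2 libraries farthest from the median, r was 0.99 and 0.90, and it was 0.99 and 0.93 in deep and 0.99 and 0.96 in shallow libraries. The other set was Gcg, Sst, Ppy and Pyy, whose 6 pairs had r from 0.41 to 0.61, with permutation adjusted p for r of at most 9.3e-05. Gcg with Sst was the highest of these, with r 0.61, rho 0.61 and r 0.63 without the 2 farthest libraries. Across the sets Pearson and Spearman differed: Ins2 with Gcg had r -0.08 (permutation adjusted p = 0.81) and rho 0.24 (permutation adjusted p = 0.043), and Ins2 with Sst had r 0.18 (permutation adjusted p = 0.21) and rho 0.44 (permutation adjusted p = 8.4e-05). By rank Sst was no nearer to Pyy (rho 0.34) or Ppy (rho 0.42) than to Ins2. All levels of a library share 1 denominator, which moves them together, and no p above covers that.

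**Figure D5:**
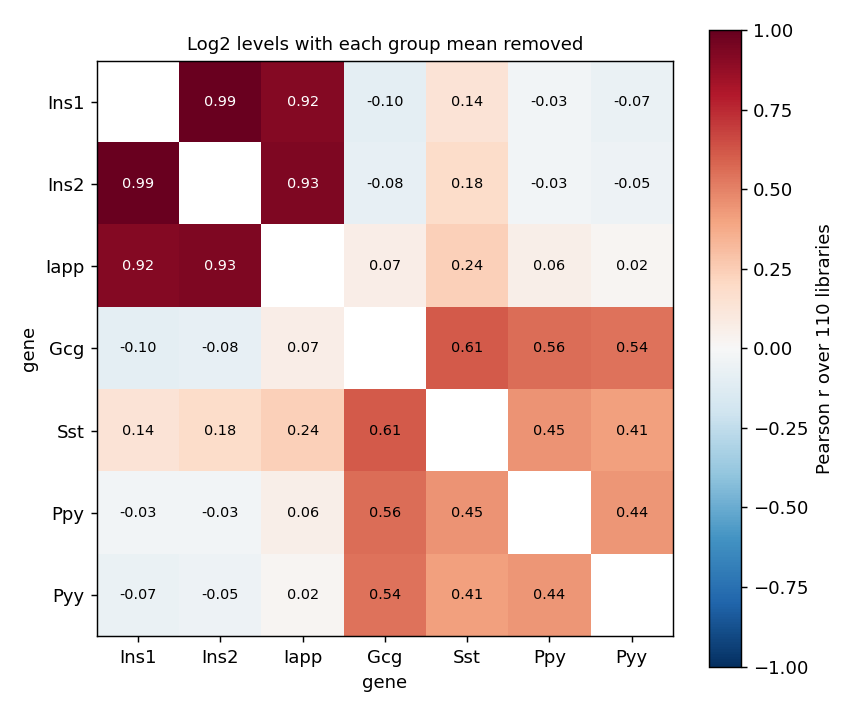
Pearson correlation between each pair of hormone genes (both axes) over 110 libraries, from log2 levels with the group means removed. Ins1, Ins2 and Iapp reach 0.92 to 0.99 with each other and between -0.10 and 0.24 with the other 4 genes.

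The genes most like each hormone gene, of 12619 other genes ranked by that correlation, are given as a description. Ins2 was followed by the granule genes Chga (r 0.85) and Scg2 (0.83), by Cpe (0.81), the enzyme that trims prohormones, by G6pc2 (0.81) and by the amylase gene Amy2a2 (0.81). Chga stood at r 0.82 in deep and 0.91 in shallow libraries, and Amy2a2 at 0.76 and 0.90. Iapp had Scg2 (0.88), G6pc2 (0.84), Chga (0.83), the prohormone convertase gene Pcsk2 (0.82) and Cpe (0.79). Gcg had no endocrine gene among its nearest 5 except Ptprn2 (0.63), beside Rpl17-ps10, Eef1g, Rsrp1 and Gm11263 at 0.62 to 0.63. The nearest to Sst was Prdx5 (0.63), then Rpl7a-ps5, Gm10076, Gm28530 and Gm13436, at 0.62 to 0.63. Pyy was nearest to Atpaf2 (0.56) and the acinar factor Rbpjl (0.55), then Nr1h3, Rps2-ps11 and Romo1. Ppy reached no more than 0.45, with Gm7986 and Cyp2d22 ahead of Gm48432, Gm8692 and Rps6-ps3.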

How the data were processed

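Poly(A) RNA of whole pancreas was sequenced from strand-preserving libraries, per the labels' protocols. The authors deposited raw read counts per Ensembl gene and, separately, normalized counts and FPKM values. Per the submitters' processing notes they used Trimmomatic 0.39, HISAT2 2.2.1, SAMtools, DESeq and DESeq2 with GRCm39. Which annotation and counting tool were used, and whether counting used strand, is not given in the sources used here. Symbols were matched for 52073 of 56980 genes. Over the raw counts, normalized counts and FPKM values together, 985 columns of per-library values were not used. Of the FPKM values, those of B6 males on chow at 20 weeks were used, as deposited.

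From the counts, edgeR 4.0.16 (R 4.3.3, limma 3.58.1) was fitted over all 110 pancreas libraries with 1 mean per group, TMM factors and its low-count filter (minimum count 10, minimum total 15), and 19 comparisons were tested with the quasi-likelihood test. The SE of a log2 change is its size divided by the square root of F. Levels are RPM after the 7 amylase genes, ratios to Ins2 used a pseudocount of 0.5, and correlations used log2(level + 1). Tests of ratios and correlations ran in Python 3.11.15 with numpy 2.4.6, pandas 2.3.3, scipy 1.17.1 and statsmodels 0.14.6. The fit was tested on simulated data for high-fat diet in TH males, over 13065 genes. It found 95 of 100 genes changed by 1 on the log2 scale and 53 of 100 changed by 0.5. There were 10 unchanged genes among 158 calls. How well the fit finds changes in the real libraries of this comparison was not tested. In the TH males on high-fat diet at 20 weeks, amylase took 4.39% to 52.0% of a library. Their Ins2 level ran from 49.8 to 1206.

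The hormone genes and the 17 gene lists were chosen with earlier results of these data known. Besides the hormone genes, the text names the 5 genes nearest to a hormone gene by correlation (mean level of at least 2), up to 3 genes per list with the smallest adjusted p among those called, and Mafa, Slc2a2, Chga and Hhex, and 2 genes that this rule covers are not reported here. Across 334 pairs of libraries within a group, counts always differed beyond sampling noise (lowest chi-square per degree of freedom 1.58), so each counted as 1 sample. DESeq2 1.42.0, other scalings, no filter, the compared groups alone, a replicate block and subsets of libraries were the alternatives. Counting intervals cover counting error only.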

Additional observations from a re-analysis of the deposited data

Results flagged for a closer look

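Of 112 sets of levels (7 genes in 16 groups), 12 held 1 library apart from the rest by Dixon's criterion, where chance gives about 1 in 20. In TH females on chow at 20 weeks replicate 8 was the highest for 3 genes, with Ins1 at 407 (next 265), Ins2 at 851 (next 571) and Sst at 60.7 (next 28.4). It is the library whose removal took the strain difference of Sst in females to 0.24. In B6 females on chow at 20 weeks replicate 7 was the highest for Gcg at 483 (next 306) and Ppy at 7.02 (next 4.01). In B6 females on high-fat diet at 5 weeks Ins1 was lowest in replicate 6 at 180.0 (next 267), and Pyy was highest in replicate 4 at 16.2 (next 10.7). In TH males on high-fat diet at 5 weeks Ins1 was highest in replicate 6 at 552 (next 448), and Ppy in replicate 5 at 4.73 (next 2.58). Iapp was lowest in replicate 4 of TH females on chow at 5 weeks, at 60.8 (next 70.9), and highest in replicate 5 of B6 males on chow at 20 weeks, at 83.7 (next 71.1). Ppy had 0 reads in replicate 3 of TH males on high-fat diet at 20 weeks, where the next library was at 2.64.

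Gonadal fat of the same study, 96 libraries of 2949692 to 22172450 reads, was not part of the comparisons. Iapp had more than 3 reads in 9 of these libraries, at most 30 reads (2.12 RPM, B6 males on chow at 5 weeks, replicate 3). Ppy had more than 3 reads in 10, at most 57 reads (5.56 RPM, TH males on high-fat diet at 5 weeks, replicate 1). The libraries concerned were all from males and held no Ins2 read and up to 1114 amylase reads. The other 5 hormone genes had at most 3 reads in any fat library.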

How the results depend on the processing

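Of the 133 values (7 genes in 19 comparisons), none that was called changed its sign in any alternative run, and which values were called did vary. The counts of hormone genes called moved by over 1.5 times, or from or to 0, as follows, and smaller shifts are left out. With library sizes after amylase removal, the age comparison in B6 called 1 in place of 0 and that in TH 1 in place of 3, diet in B6 females 1 in place of 0, diet in TH males 1 in place of 3, strain on high-fat diet in females 0 in place of 1, diet at 5 weeks 5 in place of 0 in B6 and 7 in place of 3 in TH. That scaling moved the median of all genes by more than 0.1 in 8 comparisons, by up to 0.34 for diet in B6 at 5 weeks. With library sizes after acinar enzyme removal the counts were 1 for age in B6, 1 for diet in B6 females, 6 for diet in TH at 5 weeks and 0 for strain on high-fat diet in females, and with RLE factors 1 for age in B6 and 0 for strain on high-fat diet in females. Without the low-count filter they were 1 for age in B6, 5 for age in TH, 1 for diet in B6 females, 1 for diet in TH females, 7 for diet in TH at 5 weeks, 3 for sex in TH, 4 for strain on chow in males, 4 for strain on high-fat diet in males and 2 in females. With the compared groups alone they were 5 for age in TH, 1 for diet in B6 females, 1 for diet in B6 and 6 for diet in TH at 5 weeks, 2 for diet in TH females, 1 for diet in TH males, 3 for sex in TH, 1 for strain on chow in females and 4 in males, and 2 for strain on high-fat diet in females. DESeq2 gave 1 for age in B6, 1 for diet in B6 females and 1 for strain on chow in females. Without the labels ending in a, the counts were 0 for age in TH, 1 for diet in B6 females, 1 for diet in TH males, and 1 for strain on chow in each sex. With depth class as a covariate they were 1 for each age comparison, 1 for diet in B6 females and 0 for strain on high-fat diet in females.

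The depth covariate and the subsets of libraries that follow were chosen after seeing the data. Deep libraries gave 1 for age in B6, 0 for age in TH, 1 for diet in B6 females, 5 for diet in TH males, 3 for diet by strain in males, 1 for strain on chow in females, 0 for strain on high-fat diet in females and 5 in males. Shallow libraries gave 1 for diet in TH males, 0 for strain on chow in females, 0 for strain on high-fat diet in females and 5 in males. Without the 2 libraries of low amylase share the counts were 5 for age in TH, 1 for diet in B6 females, 1 for diet in TH males, 5 for diet in TH at 5 weeks and 5 for strain on high-fat diet in males. Leaving out 1 high-fat male at a time gave 2 to 5 for strain on high-fat diet in males, with 4, 4 and 5 without TH replicates 5, 6 and 7. The cause of these shifts was not tested.

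Among uncalled values in the high-fat males, sign changes were followed for Ins1, Ins2 and Iapp alone and are given here. Leaving out B6 replicate 5 or replicate 7 also changed the sign of 1 uncalled value each. Deep libraries gave -2.60, -2.33 and -1.29 for strain, -1.38 for Iapp with diet in TH and -1.67 for Iapp with diet by strain. For Ins1, diet in TH males gave 0.02 with DESeq2, 0.17 in shallow libraries, 0.46 without the 2 libraries and -0.35 to 0.19 on leaving out 1 TH male at a time (0.16 to 0.19 for TH replicates 5 to 7), and diet by strain 0.30 without the 2 libraries and -0.52 to 0.03 on leaving out 1 male (0.02 to 0.03 for TH replicates 5 and 7). For Ins2 these were 0.11 in shallow libraries, 0.40 and -0.31 to 0.16 (0.12 to 0.16), and 0.27 and -0.45 to 0.03 (0.01 to 0.03). The highest over the lowest group median was 2.48 for Gcg and 3.49 for Sst after removal of all acinar enzymes, 3.84 for Sst over all reads, and 13.3 for Ins1 and 7.47 for Ins2 in deep libraries, where TH males on high-fat diet at 20 weeks were lowest.

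With the replicate number as a block, the counts were 1 for age in B6, 0 for age in TH, 1 for diet in B6 females and 1 for strain on chow in females, and 0 of 48 ratios passed in place of 12, with 15 at an unadjusted p under 0.05. Same-numbered libraries shared only a number: of 752 such pairs 23 had a correlation of their deviations over 0.1, and 15 of 110 libraries correlated best with their own number. Counts over all genes ran from 188 to 7251 for diet in B6 at 5 weeks (266 in the reported analysis), from 16 to 2003 for diet in TH males (1490), from 95 to 2428 for strain on chow in females (2252) and from 0 to 383 for diet in B6 females. Ppy and Pyy, with medians of 5 and 8 reads a library, are limited by depth.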
